A study of Mus musculus with 19 samples.

Results

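Pcdhb16 to Pcdhb22 are the last 7 genes, in 5′ to 3′ order, of the beta protocadherin cluster on mouse chromosome 18, and they are 7 of the 41388 genes counted in each RNA-seq library. They were picked by symbol and position, after earlier results from these same samples had shown them lower in heterozygous embryonic brain and not, as a group, in heterozygous adult cerebellum. Their genotype differences in brain and cerebellum are therefore given as a description, and no test of those differences is used as support. All 7 genes passed the filter on low counts in every comparison.

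RNA-seq had been carried out on polyA RNA of 16 samples from mice of the FVB strain. Whole brains came from embryos at E13.5 (13.5 days post coitum), with 3 Wiz +/+ (WT) and 3 Wiz MommeD30/+ (Het) males and 2 WT and 2 Het females. Cerebellums came from adult males, 56 days post partum, with 3 WT and 3 Het samples, so that tissue, age and dissection differ together and cannot be told apart. The labels do not say which samples came from one litter, and p-values measure the spread between these samples alone. MommeD30 is an allele of Wiz, which encodes a zinc finger protein, and it came from a chemical mutagenesis screen in FVB/NJ mice that carry, on both chromosomes, an array of GFP transgene copies driven by human alpha-globin elements. The mutation was kept by crossing to that line, and the labels do not say whether the sequenced WT and Het animals carried the transgene. Total counts ran from 16386029 in the second male WT brain to 50459755 in the first. Every group showed the markers of its labelled tissue. Cerebellar granule cell markers (6 genes) summed to 5595 to 5842 CPM (read counts scaled to one common library total) in cerebellum and to 399 to 449 CPM in brain, and neural progenitor markers (7 genes) to 396 to 425 CPM in cerebellum and 1936 to 2334 CPM in brain.

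Clustered protocadherins are cadherin-like adhesion proteins of the cell surface, made mainly in neurons. In the genome they lie as alpha, beta and gamma groups in tandem. A given neuron expresses a few of the beta genes, each from its own promoter, and the resulting combinations of proteins let neurites of the same cell recognise each other. CTCF and cohesin bind at most of these promoters and at distant enhancers, and loops between them accompany promoter choice. Each beta gene encodes a whole protein with extracellular cadherin repeats, a transmembrane stretch and a short cytoplasmic tail.

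In the GRCm38 (mm10) build each of the 7 genes was a single merged exon on the plus strand, with lengths from GENCODE M21. Pcdhb16 lay at chr18:37477814-37483038, Pcdhb17 at chr18:37484795-37489454 and Pcdhb18 at chr18:37489465-37494505. Pcdhb19 followed at chr18:37496991-37504128, Pcdhb20 at chr18:37504264-37507822, Pcdhb21 at chr18:37513621-37518325 and Pcdhb22 at chr18:37517871-37524479. Some neighbours nearly touch: 10 bases separated Pcdhb17 from Pcdhb18 and 135 separated Pcdhb19 from Pcdhb20. The annotated ends of Pcdhb21 and Pcdhb22 overlapped by 455 bases on the same strand, so reads from that stretch cannot be assigned by position to one of them.

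The coding sequences of the 7 genes were 2325 to 2409 bases long, and any pair was 71.7% to 76.5% identical, with a median of 74.5% over 21 pairs. Among Pcdhb2 to Pcdhb15 the median was 74.6% and the highest 89.1% over 91 pairs. Searched for exact matches in all annotated mouse transcripts at the read length of 100 bases, the members could nonetheless be told apart almost everywhere. None of the 100-base windows of Pcdhb16 or Pcdhb18 occurred in the transcript of another gene, and 0.373%, 0.242% and 0.173% of those of Pcdhb17, Pcdhb19 and Pcdhb20 did. The exceptions were Pcdhb21, with 7.73% of its windows shared, and Pcdhb22, with 5.47%, all of them shared between the pair. The levels of Pcdhb21 and Pcdhb22 are uncertain to that extent, since how the counting treated reads over both genes is not given in the sources used here.

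The mutated gene itself was lower in every Het sample. Wiz counts were 182, 200 and 188 CPM in male WT brain against 118, 126 and 123 CPM in male Het brain, and 186 and 195 CPM against 130 and 127 CPM in females. In cerebellum they were 95.4, 95.5 and 95.4 CPM in WT against 67.6, 66.6 and 67.7 CPM in Het. The groups did not overlap in any of these comparisons. The Wiz difference in cerebellum, a log2 fold change of -0.50 ± 0.03 (SE), and that in male brain, -0.63 ± 0.04, differed by 0.13 ± 0.05, which did not pass the test of the difference (adjusted p = 0.385, edgeR quasi-likelihood test).

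The question of the embryonic brain comparison was whether a reduced dose of Wiz alters expression early in the brain. All 7 members were lower in Het brains of both sexes, and no Het brain reached the lowest WT brain for any of them, over 5 WT and 5 Het brains. Their levels in Het brain were between 0.499 and 0.615 of those in WT brain. These are values that chose the members.

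Pcdhb16 measured 19.9, 18.7 and 19.9 CPM in the male WT brains and 12.7, 9.48 and 9.92 CPM in the male Het brains. In females it measured 19.3 and 20.3 CPM in WT and 9.53 and 10.5 CPM in Het. The first male Het brain was the highest of the 5 Het brains for this gene. Over both sexes the log2 fold change was -0.92 ± 0.07 (SE).

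Pcdhb17 was the most abundant member by count in WT brain, with 27.0, 30.2 and 30.1 CPM in males and 30.5 and 33.9 CPM in females. Its Het levels were 18.1, 15.8 and 16.4 CPM in males and 15.8 and 16.8 CPM in females. The log2 fold change over both sexes was -0.87 ± 0.06. No WT brain was below 27.0 CPM and no Het brain above 18.1 CPM.

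Pcdhb18 measured 14.2, 12.3 and 12.1 CPM in male WT brain and 12.9 and 14.1 CPM in female WT brain. The Het values were 7.29, 6.62 and 6.44 CPM in males and 6.20 and 6.43 CPM in females, a log2 fold change of -1.0 ± 0.07. Its coefficient of variation in Het brain was 6.65% in males and 2.57% in females (n = 2), where counting alone gave 6.18% and 5.86%. It was not the lowest of the members, with Pcdhb20 at 5.85% in male and Pcdhb22 at 2.31% in female Het brain.

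Pcdhb19 varied more between WT brains, from 24.1, 19.1 and 22.6 CPM in males to 20.9 and 26 CPM in females. In Het brain it measured 12.9, 11.3 and 11.3 CPM in males and 9.91 and 12.6 CPM in females. The groups stayed apart, and the log2 fold change over both sexes was -0.97 ± 0.09.

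Pcdhb20, the shortest of the 7 genes, measured 18.1, 17.2 and 17.5 CPM in male WT brain and 18.5 and 21.8 CPM in female WT brain. Its Het levels were 10.3, 10.6 and 9.48 CPM in males and 9.60 and 11.1 CPM in females, giving a log2 fold change of -0.87 ± 0.07. Every Het brain lay between 9.48 and 11.1 CPM.

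Pcdhb21 and Pcdhb22, the overlapping pair at the 3′ end, had the smallest differences. Pcdhb21 measured 13.7, 10.1 and 13.1 CPM in male WT brain, against 10.1, 7.13 and 7.17 CPM in male Het brain. The second WT brain, the shallowest library, and the first Het brain were nearly level for this gene, the WT brain being the higher. In females the values were 12.9 and 13.0 CPM in WT and 7.23 and 7.53 CPM in Het, and the log2 fold change over both sexes was -0.70 ± 0.10. Pcdhb22 measured 13.4, 13.7 and 13.9 CPM in male WT brain and 10.6, 7.57 and 8.40 CPM in male Het brain. In females it measured 15.9 and 16.9 CPM against 9.16 and 9.47 CPM, and the log2 fold change was -0.71 ± 0.08.

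**Figure D1:**
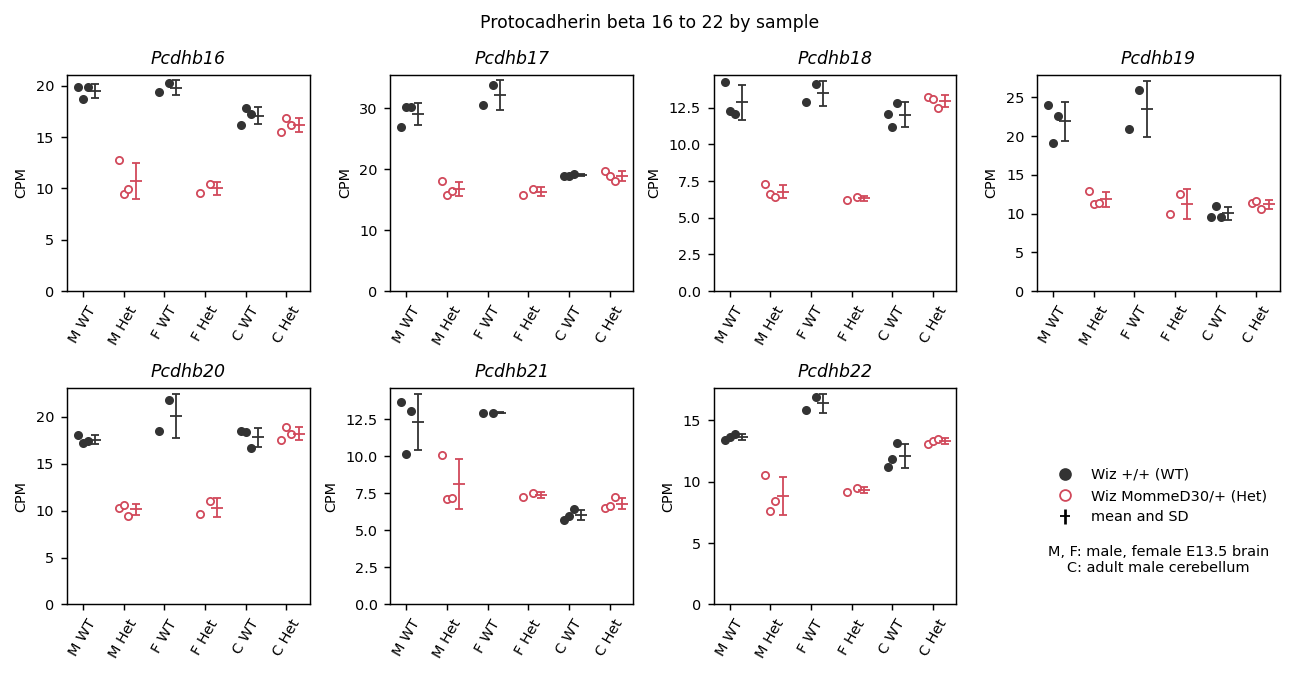
Expression of each of the 7 genes (y axis, CPM from total counts, starting at 0) in the 16 samples, by group on the x axis. Filled points are WT samples, open points Het samples, and the bar beside each group is the mean with its SD (n = 3, or 2 for female brain). Het points lie below all WT points in both brain sets for every gene, and the cerebellum groups overlap for 6 of the 7.

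A gene was called at an adjusted p of at most 0.05 with a fold change under 0.7 or over 1.3. Over both sexes all 7 members were called lower, where 0.254% of the 17332 genes tested were called lower. In males alone 6 of 7 were called (Pcdhb21 was not), against 0.166% of 16848 genes, and in females alone 4 of 7 (Pcdhb16, Pcdhb17, Pcdhb18 and Pcdhb22), against 0.111% of 17152 genes. Without either WT female 7 members were called and without either Het female 0, but each of these fits leaves 1 sample in an arm, which is assumed to vary like the other genotype's pair, and the log2 fold changes stayed between -0.77 and -1.25. Every Het brain lay below every WT brain for 7 of 7 members and for 0.825% of all genes tested, in males alone for 5.4% and in females alone for 17.3% of genes. Since the brain comparison chose the members, nothing is read from these counts.

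Calls in males turned on the pair at the 3′ end. Pcdhb21 was called without the first male Het brain (log2 fold change -0.82, adjusted p = 0.0121), its adjusted p running from 1.7e-05 to 0.564 over all alternatives. Among the fits that leave out a sample, Pcdhb22 lost its call without any of the 3 WT brains or without the second Het brain, with adjusted p between 0.102 and 0.181, and over all alternatives its adjusted p ran from 1.54e-06 to 0.181. The values themselves stayed between -0.54 and -0.82 for Pcdhb21 and between -0.53 and -0.78 for Pcdhb22.

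Whether the size of the difference varied with the sex of the embryo was tested in all 10 brains, a contrast that the choice of genes did not use. The female difference was the larger in value for all 7, by 0.12 to 0.19 on the log2 scale, and none of the 7 passed the test (adjusted p of 0.985 to 0.987). No gene of the 17620 tested passed it in edgeR's quasi-likelihood test, 701 genes had an unadjusted p under 0.05, none of them a member, and DESeq2 called 1 gene, not a member. The intervals leave room for a sex difference in either direction. For Pcdhb17, the most precise, the difference was -0.19 with a 95% interval of -0.43 to 0.05, and for Pcdhb21, the least precise, -0.19 with an interval of -0.64 to 0.26.

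In bulk tissue a lower level can mean fewer cells that express a gene or less RNA per cell, and these cannot be told apart. Neuronal markers (7 genes) summed to 6313 to 6524 CPM in male WT brain and 6316 to 6457 CPM in male Het brain, and to 6517 to 6905 CPM and 6221 to 6581 CPM in the females, so the sums of the genotypes overlapped in both sexes. Gene by gene over both sexes, 6 of the 7 were lower in value in Het and 1 higher (median log2 fold change -0.06). All 7 progenitor markers were higher in value in Het over both sexes (median 0.14). Other marker sums did separate by genotype. In males these were the Purkinje cell list (5 genes), with 57.1 to 62.5 CPM in WT and 68.2 to 72.7 CPM in Het brain, and the granule cell list, with 399 to 426 CPM in WT and 430 to 444 CPM in Het. Of the granule cell list 5 genes were tested in males, 3 lower in value in Het and 2 higher. Its Zic1 averaged 301 CPM in male WT and 324 CPM in male Het brain. In the females, with 2 brains per genotype, progenitor markers were higher in Het, at 2235 to 2334 CPM against 1936 to 2167 CPM, and 5 lists were lower in Het. Those were the markers of astrocytes (193 to 199 CPM against 213 to 233), oligodendrocytes (85.7 to 93.8 against 95.6 to 98.4), microglia (56.3 to 60.2 against 64.0 to 66.0), endothelium (164 to 176 against 179 to 184) and erythroid cells (1246 to 1284 against 1348 to 1397). Of the 6 oligodendrocyte genes 3 were lower in value in Het females and 3 higher. No list separated in both sexes. In females the Purkinje cell list ran from 55.4 to 64.7 CPM in WT and from 64.7 to 67.2 CPM in Het, so the groups just met. Of its 5 genes 2 were higher in value in Het females and 3 lower. The part of these lists in the result was not tested. No gene of these lists was called in brain by edgeR's quasi-likelihood test, and DESeq2 called 1, Calb1 of the Purkinje cell list in males, which encodes a calcium-binding protein (log2 fold change 0.43 ± 0.08, edgeR adjusted p = 0.0588).

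The adult cerebellum was sampled to set expression changes beside binding of Wiz measured in the same tissue. There the 7 genes showed no common direction: 5 were higher in value in Het, 2 lower, and 0 were called by edgeR's quasi-likelihood test. None had an unadjusted p under 0.05, and DESeq2 also called 0. Of all 15979 genes tested, 0.832% were called.

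Pcdhb16 measured 16.2, 17.8 and 17.3 CPM in WT and 15.5, 16.9 and 16.2 CPM in Het cerebellum, a log2 fold change of -0.07 with a 95% interval of -0.20 to 0.06. Pcdhb17 measured 18.9, 18.9 and 19.2 CPM against 19.7, 18.9 and 18.1 CPM, a log2 fold change of -0.01 (-0.12 to 0.11). For both genes the genotypes overlapped.

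Pcdhb18 measured 12.1, 11.2 and 12.8 CPM in WT and 13.3, 13.1 and 12.5 CPM in Het, with a log2 fold change of 0.11 (-0.04 to 0.26). Pcdhb19 measured 9.52, 11 and 9.55 CPM in WT and 11.4, 11.6 and 10.6 CPM in Het, with a log2 fold change of 0.16 (-0.01 to 0.32). Pcdhb20 measured 18.5, 18.4 and 16.7 CPM against 17.6, 18.9 and 18.2 CPM, with a log2 fold change of 0.03 (-0.09 to 0.16). Genotypes overlapped for all of these as well.

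Pcdhb21, the least abundant member in cerebellum, measured 5.73, 5.94 and 6.42 CPM in WT and 6.52, 6.65 and 7.23 CPM in Het. It was the only member whose groups did not overlap, with every Het sample above every WT sample, as held for 11.7% of the genes tested, and its log2 fold change was 0.18 (-0.02 to 0.37). Pcdhb22 measured 11.2, 11.8 and 13.1 CPM in WT and 13.1, 13.3 and 13.5 CPM in Het, a log2 fold change of 0.14 (-0.01 to 0.30), and its groups met at 13.1 CPM.

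Summed over the 7 genes, cerebellum held 94.1 ± 1.7 CPM in WT and 97.5 ± 1.7 CPM in Het (SD, n = 3 each). The other beta genes together held 107 ± 2.0 CPM in WT and 82.9 ± 0.9 CPM in Het. The 7 genes thus made up 46.8% ± 0.8 of beta protocadherin counts in WT cerebellum and 54.1% ± 0.3 in Het cerebellum. In male brain the shares went the other way, from 57.8% ± 1.2 in WT to 51.2% ± 0.8 in Het, with summed levels of 127 ± 5.0 and 73.2 ± 7.7 CPM. In female brain the share was 55.8% ± 1.2 in WT and 51.3% ± 1.1 in Het (n = 2 each).

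Cerebellum of Het mice also had more counts from erythroid genes, with a sum of 266 to 481 CPM against 145 to 228 CPM in WT. Of the 7 erythroid genes 5 were tested and 4 were called higher (Hba-a1, Hba-a2, Hbb-bs and Alas2), while DESeq2 called 1, and the embryonic globins Hbb-y and Hba-x were at 0. Markers of astrocytes and Bergmann glia (6 genes) were 2618 to 2647 CPM in Het and 2542 to 2608 CPM in WT, with 4 genes higher in value in Het and 2 lower. Of the 7 progenitor markers 6 were lower in value in Het and 1 higher (median log2 fold change -0.23), and none was called. Their sums overlapped, at 419 to 425 CPM in WT and 396 to 425 CPM in Het. In edgeR's quasi-likelihood test 4 of these 7 had an unadjusted p under 0.05, as did 3174 of all 15979 genes. The part of any of these lists in the cerebellum values of the 7 members was not tested.

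**Figure D2:**
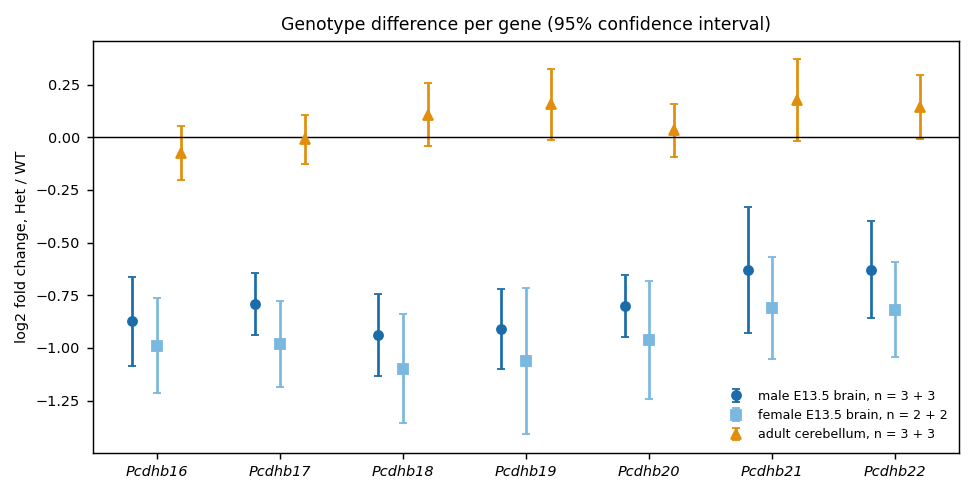
Log2 fold change of Het over WT (y axis) for each gene (x axis) in male E13.5 brain (circles), female E13.5 brain (squares) and adult cerebellum (triangles), with 95% confidence intervals from edgeR's quasi-likelihood fits. The brain intervals lie below 0 for all 7 genes and those of cerebellum include 0 for all 7.

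The contrast between the tissues was then tested gene by gene in the 12 male samples, as the genotype difference in cerebellum minus that in E13.5 brain. It shares its samples with the comparisons above, and the values on each side of it were known when the genes were picked, so the test gives the size of the difference and its error and is no independent evidence. For all 7 genes the value was positive, and 6 of 7 passed an adjusted p of 0.05, where 0.167% of the 17337 genes tested passed in that direction. Of the cell type markers, 1 of the 7 progenitor genes and 1 of the 5 Purkinje cell genes passed with a negative value, as did 16 of all genes tested. Their part in the values of the members was not tested.

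Pcdhb19 had the largest value, 1.07 ± 0.13 on the log2 scale (95% interval 0.80 to 1.34, adjusted p = 0.000783, edgeR quasi-likelihood test). Pcdhb18 followed with 1.05 ± 0.12 (0.80 to 1.29, adjusted p = 0.000309). Pcdhb20 had 0.83 ± 0.09 (0.64 to 1.02) and Pcdhb17 0.78 ± 0.08 (0.60 to 0.96), both also at an adjusted p of 0.000309, and Pcdhb17 had the smallest p of all genes tested. These genes passed under every alternative run.

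Pcdhb16 had 0.80 ± 0.12 (0.54 to 1.05, adjusted p = 0.00833) and also passed under every alternative. Pcdhb22 had 0.77 ± 0.13 (0.49 to 1.05, adjusted p = 0.0173), and among the fits that leave out a sample it lost its call only without the second WT cerebellum (0.76, adjusted p = 0.0516), with a range of 6.92e-08 to 0.0516 over all alternatives. Pcdhb21 had a value of similar size, 0.81 ± 0.19 (0.41 to 1.20), with the widest error, and did not pass (adjusted p = 0.0972). Without the first male Het brain its value was 0.99 (adjusted p = 0.0117) and without the second male WT brain 0.90 (adjusted p = 0.0365), and its adjusted p ran from 2.20e-06 to 0.234 over all alternatives. The intervals of all 7 genes overlap.

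**Figure D3:**
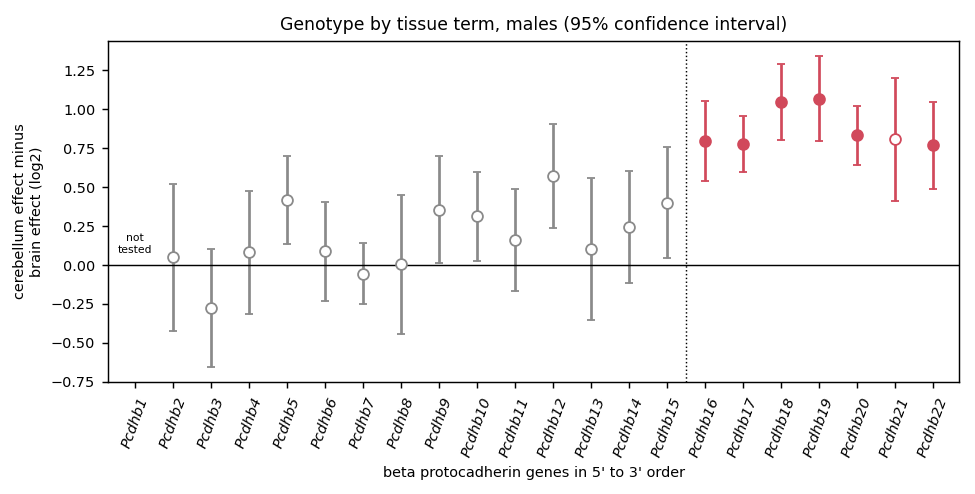
Genotype difference in adult cerebellum minus that in E13.5 brain, males (y axis, log2), for the beta protocadherin genes in 5′ to 3′ order (x axis), with 95% confidence intervals. Filled points passed an adjusted p of 0.05 and open points did not. Pcdhb16 to Pcdhb22 are in red, right of the dotted line, at 0.77 to 1.07, and Pcdhb2 to Pcdhb15 in grey at -0.28 to 0.57.

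Levels in WT animals were not part of the choice of genes. Per kilobase of exon, the order in male WT brain was Pcdhb17 (6.25 ± 0.39 CPM per kb, SD), Pcdhb20 (4.94 ± 0.13), Pcdhb16 (3.73 ± 0.14), Pcdhb19 (3.07 ± 0.36), Pcdhb21 (2.61 ± 0.40), Pcdhb18 (2.55 ± 0.23) and Pcdhb22 (2.07 ± 0.04). The first 4 genes of the order were each apart from the next except Pcdhb19, whose samples overlapped with those of Pcdhb21, as did those of Pcdhb21 with Pcdhb18. Female WT brain gave the same order of means, from 6.90 ± 0.52 CPM per kb for Pcdhb17 to 2.48 ± 0.12 for Pcdhb22.

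In WT cerebellum the order was different. Pcdhb20 led with 5.01 ± 0.29 CPM per kb, followed by Pcdhb17 (4.08 ± 0.03), Pcdhb16 (3.27 ± 0.16), Pcdhb18 (2.39 ± 0.17), Pcdhb22 (1.82 ± 0.15), Pcdhb19 (1.41 ± 0.12) and Pcdhb21 (1.28 ± 0.08). Only Pcdhb19 and Pcdhb21 overlapped with a neighbour in that order, namely each other. Het samples kept the cerebellum order, and in Het brain the leading genes were again Pcdhb17, Pcdhb20 and Pcdhb16 in both sexes.

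**Figure D4:**
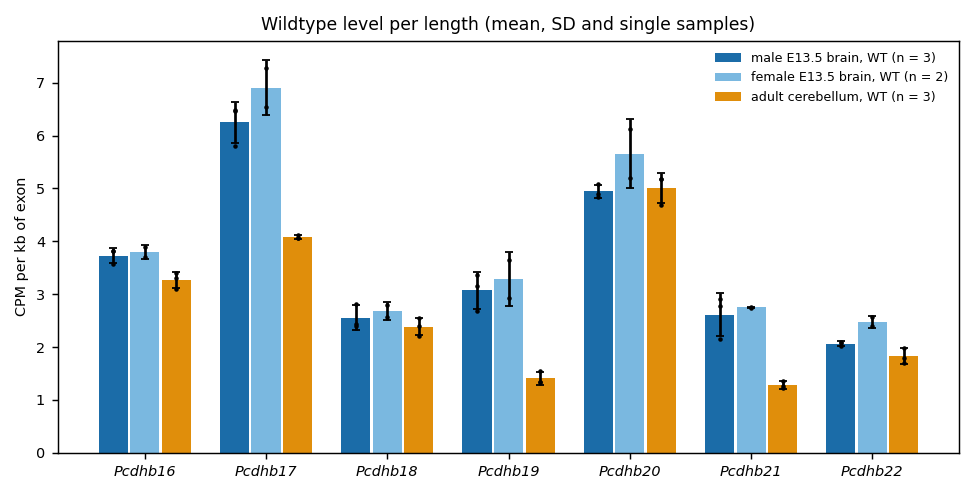
Level per length (y axis, CPM per kb of exon, starting at 0) of each gene (x axis) in WT male E13.5 brain, WT female E13.5 brain and WT adult cerebellum. Bars are means, error bars SD and points single samples (n = 3, 2 and 3). All cerebellum points of Pcdhb16, Pcdhb17, Pcdhb19, Pcdhb21 and Pcdhb22 lie below all brain points, and those of Pcdhb18 and Pcdhb20 overlap with brain. Levels are scaled by total counts, under which the median gene was itself at -0.23 (log2) in WT cerebellum against WT male brain. With the scaling of the edgeR comparison Pcdhb16 and Pcdhb22 were at 0.01 and 0.03.

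Between WT cerebellum and WT male brain 2 of the 7 genes passed the threshold, where 69.3% of the 16840 genes tested did (32.9% lower and 36.4% higher in cerebellum). Pcdhb19 was lower in cerebellum by a log2 fold change of -0.94 ± 0.09 (adjusted p = 1.32e-07, edgeR quasi-likelihood test, lower in 3 of 3 samples) and Pcdhb21 by -0.85 ± 0.11 (adjusted p = 2.87e-06, lower in 3 of 3). Pcdhb17 differed by -0.39 ± 0.06 (adjusted p = 1.51e-05) and Pcdhb20 by 0.23 ± 0.07 (adjusted p = 0.00493), both inside the fold limits. Pcdhb16, Pcdhb18 and Pcdhb22 had log2 fold changes of 0.01 (-0.12 to 0.15), 0.10 (-0.09 to 0.28) and 0.03 (-0.13 to 0.19).

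These tissue values depend on how the libraries are scaled. With total counts alone, a setting added after the data were seen, the median over all genes moved from -0.02 to -0.23 on the log2 scale, Pcdhb17 passed the threshold at -0.61, and Pcdhb16, Pcdhb18 and Pcdhb22 turned to -0.20, -0.11 and -0.18, with Pcdhb20 at 0.01. Relative to the median gene the members kept their values under both scalings, at -0.93 for Pcdhb19, -0.84 for Pcdhb21, -0.38 for Pcdhb17 and 0.24 for Pcdhb20.

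The other beta genes give the surroundings of these values. Of Pcdhb1 to Pcdhb15, 14 were tested and Pcdhb1 was too low to be. In E13.5 brain over both sexes all 14 were lower in value in Het and 10 were called, the smallest p belonging to Pcdhb10 (-0.81 ± 0.08), Pcdhb12 (-0.93 ± 0.10), Pcdhb13 (-0.94 ± 0.10) and Pcdhb14 (-1.16 ± 0.13). The median log2 fold change was -0.73 over these 14 and -0.87 over the 7 members, against 0.00 over all genes. In males alone the medians were -0.60 over the 14 and -0.80 over the 7, and in females -0.94 and -0.98. The female difference was the larger in value for 12 of the 14 and the smaller for 2 (median sex term -0.26, against -0.16 over the 7). Of the 14, 6 had an unadjusted p under 0.05 for the sex term in edgeR's quasi-likelihood test, as did 701 of 17620 genes, and none passed.

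In cerebellum, where 0 of the 7 members were called, 5 of the 14 other beta genes were called lower, against 0.300% of all genes. Those of smallest p were Pcdhb14 (-0.66 ± 0.09), Pcdhb3 (-0.54 ± 0.10), Pcdhb13 (-0.72 ± 0.14) and Pcdhb8 (-0.77 ± 0.16). The median was -0.41 over the 14 and 0.11 over the 7, against 0.00 over all genes. Every Het cerebellum was below every WT cerebellum for 12 of Pcdhb1 to Pcdhb15, for none of Pcdhb16 to Pcdhb22 and for 12.6% of the 15979 genes tested. The 12 include Pcdhb1, which was not among the genes tested and had only 6 to 9 counts in WT and 3 to 6 in Het cerebellum. Whether the 2 lists differ was not tested.

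At the border of the choice lie Pcdhb15 and Pcdhb16, whose genes are 1473 bases apart. Pcdhb15 had log2 fold changes of -1.03 ± 0.12 in E13.5 brain over both sexes and -0.44 ± 0.10 in cerebellum. For Pcdhb16 these were -0.92 ± 0.07 and -0.07 ± 0.06. The tissue term, which uses male brains alone, was 0.40 ± 0.17 for Pcdhb15 (95% interval 0.04 to 0.76) and 0.80 ± 0.12 for Pcdhb16. Over all alternatives, 1 of which used the brains of both sexes, it ran from 0.27 to 0.62 for Pcdhb15 and from 0.71 to 0.94 for Pcdhb16. Over the 14 other beta genes that term had a median of 0.13, it was positive for 12, and none passed in edgeR's quasi-likelihood test, with 5 at an unadjusted p under 0.05 and 0 called by DESeq2. The highest of them was Pcdhb12 (0.57 ± 0.16, adjusted p = 0.175).

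Between WT cerebellum and WT male brain 8 of the 14 passed the threshold as higher in cerebellum, where 36.4% of all genes did, among them Pcdhb14 (1.69 ± 0.10), Pcdhb9 (1.32 ± 0.12), Pcdhb12 (1.11 ± 0.10) and Pcdhb13 (1.36 ± 0.14). Of the 7 members 0 passed as higher and 4 were higher in value. The medians were 0.49 over the 14 and 0.01 over the 7. Het difference and tissue difference share the WT samples, so no relation between them is given.

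**Figure D5:**
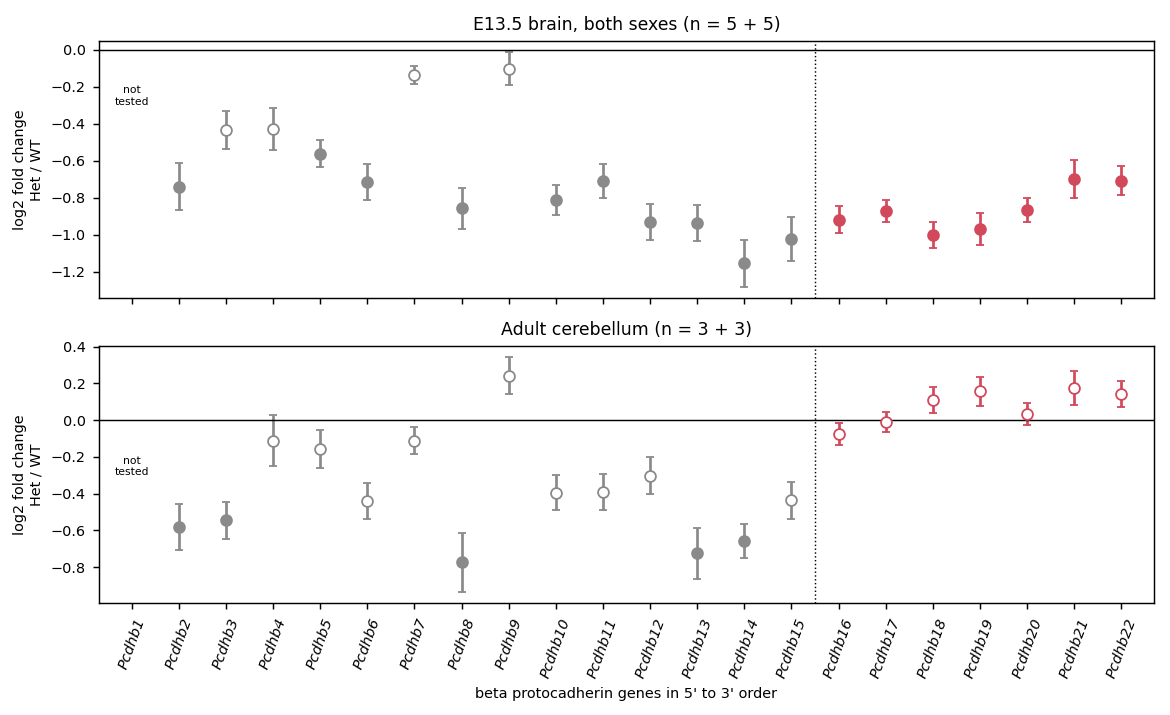
Log2 fold change of Het over WT with its SE (y axes) for the beta protocadherin genes in 5′ to 3′ order (x axis), in E13.5 brain of both sexes (top, 5 WT and 5 Het) and in adult cerebellum (bottom, 3 and 3). Red points right of the dotted line are Pcdhb16 to Pcdhb22, and filled points were called. In brain the red points lie at -0.70 to -1.0 and in cerebellum at -0.07 to 0.18.

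Of the alpha, gamma and flanking genes counted, none was called between genotypes in brain. The identifier annotated as Pcdha11, the only alpha gene in the counts, had a log2 fold change of -0.32 ± 0.06 in E13.5 brain and was not called, since it lies inside the fold limits. The only gamma identifier, Pcdhgc4, measured 546 CPM in male WT and 541 CPM in male Het brain, and 696 and 711 CPM in WT and Het cerebellum. Reads of the alpha and the gamma identifier may each come from several isoforms of their cluster, which was not checked. Changes of single isoforms could therefore be missed. Of the flanking genes, Taf7, a subunit of a general transcription factor, measured 32.7 and 32.1 CPM in male WT and Het brain, and Diaph1, an actin-nucleating formin, 69.5 and 70.1 CPM.

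Genes for proteins known at clustered protocadherin promoters showed no called difference between genotypes under the chosen settings. Of 14 such genes, which include Ctcf and cohesin subunits, the silencing factor Smchd1 and DNA methyltransferases, 0 were called in E13.5 brain by edgeR's quasi-likelihood test, 2 had an unadjusted p under 0.05 and DESeq2 called 0. In cerebellum 0 were called, 4 had an unadjusted p under 0.05 and DESeq2 called 0, while the alternatives other than leaving out a sample called 0 to 1. Most values leaned 1 way and were small. In E13.5 brain over both sexes all 14 were higher in value in Het, by 0.01 to 0.28 on the log2 scale (median 0.04). In cerebellum 12 were higher and 2 lower (median 0.05). Trim28, a corepressor, and Rad21, a cohesin subunit, are the most abundant of the 14 in male WT brain, at 507 and 327 CPM. Between WT cerebellum and WT male brain 7 of the 14 passed the threshold as lower in cerebellum, where 32.9% of all genes did, and 0 as higher, and 11 passed with total counts alone.

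The genes whose pattern was closest to the mean of the 7, across 16 samples after each tissue and sex set's own mean was subtracted, included beta genes and genes elsewhere. Sycp1, a component of the synaptonemal complex on chromosome 3, had the highest Pearson's r (0.943), followed by Stag3, a meiotic cohesin subunit on chromosome 5 (0.909), Pcdhb5 (0.908), Pcdhb12 (0.907) and 3222401L13Rik (0.905), which lies within the protocadherin cluster, 3′ of Pcdhb22, and had log2 fold changes of -1.43 ± 0.12 in brain and -0.57 ± 0.12 in cerebellum. The third outside the cluster was Gm10557 (0.883), a predicted gene that GENCODE M21 places elsewhere on chromosome 18. The authors list it in a poorly annotated gene cluster on another chromosome, where they allow that some changes are mapping artefacts. Whether its reads are shared with copies elsewhere was not checked. For Wiz r was 0.762. All of these points share the same libraries and the split by genotype, so r describes likeness only.

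Sycp1 averaged 10.1 CPM in male WT and 5.42 CPM in male Het brain, 9.88 and 3.75 CPM in female WT and Het brain, and 25.5 CPM in WT and 25.8 CPM in Het cerebellum. Stag3 measured 17.5 and 14.1 CPM in male WT and Het brain, 16.6 and 11.3 CPM in female brain, and 3.04 and 3.14 CPM in cerebellum. Both were lower in value in Het brain and close to level between genotypes in cerebellum. Among the members themselves, pairs had r of 0.906 to 0.992 over the 10 brains (median 0.97, 21 pairs) after the mean of each sex was subtracted. With each genotype's mean subtracted as well, the median was 0.628, and in the 6 cerebellums it was -0.19. The cerebellum value rests on 6 samples.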

How the data were processed

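PolyA RNA was sequenced as 100-base single-end reads with the Illumina TruSeq kit, and the authors mapped reads to mm10 with Tophat 2.0.11 and counted exonic reads with HTSeq 0.6.1. The deposited values are raw read counts per Ensembl gene, with no normalization, and the annotation release and counting mode are not given in the sources used here. Of 41388 identifiers 40254 matched GENCODE M21, from which names, positions and lengths were taken. The other 1134 held at most 0.171% of a sample. The 3 ChIP-seq samples were not analysed here. The level of a gene is given as CPM of total counts.

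Genotypes were compared with edgeR 4.0.16 in R 4.3.3 (TMM scaling, filterByExpr with a minimum count of 10, quasi-likelihood test, Benjamini-Hochberg adjustment over all genes tested), each comparison on its own samples, both sexes with sex as a covariate. Alternatives were DESeq2 1.42.0, its size factors, other filters, a replicate block, 1 fit of all 16 samples, each sample left out and, chosen after seeing the data, total counts alone. TMM factors ranged from 0.923 to 1.10. Fits were tested on simulated counts. Coding sequences were compared by edit distance over the longer sequence. Tables were made with Python 3.11.15. Members, gene lists and tests were chosen with earlier results of these data known. All members are named, with up to 4 genes of each list by smallest p. Replicates of a group differed beyond counting noise in every pair (chi-square over its degrees of freedom, 2.11 to 11.2), and each was counted as 1 sample. No sequence is printed for these genes.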

Additional observations from a re-analysis of the deposited data

Results flagged for a closer look

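In 6 of the 7 genes the genotype difference itself differed between the tissues, in the interaction term of edgeR's quasi-likelihood fit over the 12 male samples, with values in log2 units of 0.80 for Pcdhb16, 0.78 for Pcdhb17, 1.05 for Pcdhb18, 1.07 for Pcdhb19, 0.83 for Pcdhb20 and 0.77 for Pcdhb22. The values on each side of that contrast were known when the genes were picked. No group held enough samples for a test of single samples that stand apart.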

How the results depend on the processing

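In E13.5 brain over both sexes 7 members were called under all 17 alternatives, in cerebellum 0 under all 14 and for the sex term 0 under all 17. Male brain gave 5 to 7 of 7 with 6 called and the tissue term 5 to 7. In female brain, with 4 called, DESeq2's Wald test and the fit of all 16 samples called 7, and leaving out a sample gave 0 to 7. The cause was not tested. Between WT tissues 4 passed with the adjusted p alone instead of 2, since the fold limits then do not apply.

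Same-numbered samples did not deviate together (correlations of -0.271 to -0.015), so no pairing by number was seen in the values. The groups are small, and the labels do not say whether the numbers pair samples. With the replicate block 0 members were called in female brain, 5 in male brain and 5 for the tissue term, Pcdhb22 losing its call in both (adjusted p = 0.0617 and 0.0506, edgeR quasi-likelihood test).

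Signs turned for values near 0. Leaving out a sample gave, in cerebellum, -0.037 to 0.024 for Pcdhb17 and -0.02 to 0.062 for Pcdhb20, between WT tissues -0.011 to 0.060 for Pcdhb16 and -0.019 to 0.092 for Pcdhb22, and for the sex term -0.20 to 0.031 for Pcdhb16, -0.34 to 0.015 for Pcdhb19 and -0.28 to 0.0040 for Pcdhb21. Between WT tissues, with total counts alone (chosen after seeing the data), Pcdhb16, Pcdhb18 and Pcdhb22 gave -0.20, -0.11 and -0.18. The shallowest library, a male WT brain, held 16386029 counts, and its part in the precision of the male comparison was not tested. Over all genes the tissue term called 13 to 416 genes (45 as reported), male brain 20 to 175 (31), female brain 0 to 261 (19), cerebellum 66 to 839 (133) and both sexes 42 to 101 (61).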
